A study of Homo sapiens with 6 samples.

Results

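Chromogranins, secretogranins, neuropeptides and the enzymes that process them are the cargo of dense-core secretory granules. The genes examined here were CHGA, CHGB, SCG2, SCG3, SCG5, VGF, NPY, GAL, CPE and PCSK1, and every probe set annotated with exactly 1 of these 10 symbols was taken. This gave 11 probe sets for 9 of the 10 genes, out of 22215 probe sets tested. CPE and GAL each had 2 probe sets, the other genes had 1, and PCSK1, a prohormone convertase, was not analysed here.

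The values came from 6 Affymetrix GeneChip arrays (human) of SH-SY5Y cells, a neuroblastoma cell line of neuronal character. In 3 of them the cells had received free bilirubin (Bf, the unconjugated bilirubin not bound to albumin) at 140 nM for 1 h, and in 3 its solvent, DMSO, at 0.6% for 1 h. All cells were grown in the same serum-containing medium. Each treatment had separate flasks, and the methods state independent biological replicates, all of this single line. Both groups carry the replicate numbers 1, 2 and 3. Each probe set's value is on the log2 scale after variance-stabilizing normalization (VSN), where 1 unit is a 2-fold difference at bright probe sets and more than that near background.

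Dense-core granules form at the trans-Golgi network, where granins aggregate with prohormones and are packed into vesicles that release their content when calcium rises. Convertases cut the precursors at pairs of basic residues, carboxypeptidase E trims the exposed residues, and the mature peptides are stored until release. In sympathetic neurons and in the chromaffin cells of the adrenal medulla these granules also hold catecholamines, and chromogranins and NPY are classical markers of tumours of this lineage.

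The cell identity was checked on marker genes. Of 9 noradrenergic neuroblastoma markers, 8 had a probe set with 1 symbol and 6 were above the median level of all probe sets. DBH, which makes noradrenaline, was at 12.95 ± 0.21 (SD, n = 3) in Bf and 12.97 ± 0.27 (SD, n = 3) in DMSO, whereas TH, the first enzyme of catecholamine synthesis, was dim at 6.49 ± 0.14 and 6.50 ± 0.07. The mean of the noradrenergic markers lay between 11.12 and 11.30 over the 6 arrays. Mesenchymal markers were above the median level in 7 of 9 cases, with means between 8.70 and 8.93. Markers of Schwann and glial cells (0 of 4 above the median) and of leukocytes (0 of 5) were dim.

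Both replicate 3 arrays stood apart from the other 4. Each correlated at no more than 0.977 with any array of another number, against 0.995 with the other replicate 3 array. On these arrays the 3′ probe set of actin exceeded the 5′ one by 1.49 in Bf and 1.90 in DMSO, a measure of 3′ bias, against 0.10 to 0.50 on the other 4, and array medians were 7.78 and 7.73 against 7.94 to 7.97. Replicate 3 holds 1 array of each treatment.

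Promoter sequences are shown for the measured granule genes in which a cAMP response element or its core TGACG was found, since this element is a known regulatory site in several neuropeptide and granin genes. The 250 bases before the start were taken from RefSeq on GRCh38.p14, whose table matched 7 of the 10 genes (CHGA, SCG3, SCG5, VGF, NPY, CPE and PCSK1) with 8 promoters. The windows were searched on both strands for the full element TGACGTCA, for TGACG (part of the full element) and for the TATA box TATAAA. Capitals mark the matches below, printed 5′ to 3′ on the strand of the gene.
CHGA, chr14:92922900-92923149, plus strand: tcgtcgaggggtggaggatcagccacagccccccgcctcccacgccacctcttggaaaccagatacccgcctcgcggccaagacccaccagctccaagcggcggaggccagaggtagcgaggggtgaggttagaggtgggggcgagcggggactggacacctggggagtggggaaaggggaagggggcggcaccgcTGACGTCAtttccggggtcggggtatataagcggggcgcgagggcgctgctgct
VGF, chr7:101165570-101165819, minus strand: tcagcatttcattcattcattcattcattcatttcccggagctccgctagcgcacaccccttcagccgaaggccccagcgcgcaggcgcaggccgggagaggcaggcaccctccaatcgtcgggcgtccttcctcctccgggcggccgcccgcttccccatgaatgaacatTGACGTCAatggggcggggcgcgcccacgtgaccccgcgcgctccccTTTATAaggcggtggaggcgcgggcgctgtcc
SCG5, chr15:32641460-32641709, plus strand: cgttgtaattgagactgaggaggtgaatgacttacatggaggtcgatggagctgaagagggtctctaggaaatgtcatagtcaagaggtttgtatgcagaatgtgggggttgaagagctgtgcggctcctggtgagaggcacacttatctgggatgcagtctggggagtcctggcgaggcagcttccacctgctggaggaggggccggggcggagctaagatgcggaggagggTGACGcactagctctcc
CPE, chr4:165378758-165379007, plus strand: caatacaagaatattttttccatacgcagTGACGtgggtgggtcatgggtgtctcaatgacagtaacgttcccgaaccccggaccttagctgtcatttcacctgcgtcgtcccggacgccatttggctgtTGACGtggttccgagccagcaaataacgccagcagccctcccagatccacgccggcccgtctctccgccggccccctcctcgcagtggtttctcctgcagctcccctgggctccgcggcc

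The full element began 54 bases before the start in CHGA and 79 bases before it in VGF, and 1 of the 2 PCSK1 promoters held it at 77. Among all 35116 promoters in the table, 578 (1.65%) held it. TGACG without the rest of the element was found in SCG5, 17 bases before the start, and in CPE, at 221 and 120 bases. The PCSK1 promoter with the full element also held a separate TGACG at 49, and 21.2% of all promoters held TGACG. The capitals nearer to the start of VGF are TATAAA on the other strand, at 32 bases. The other PCSK1 promoter held TATAAA at 28, and 10.7% of all promoters held this motif. The windows of SCG3 and NPY held none of the 3 motifs. A match is a description of the sequence, and no binding was measured.

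The granule genes were mostly bright. Of the 11 probe sets, 10 lay above the median level, and the position of each among all 22215 is given as its brightness rank by the mean of the 6 arrays, with 1 as the brightest. NPY, a peptide of sympathetic neurons, had rank 191 (0.855% of probe sets brighter). GAL, the precursor of galanin, followed with rank 578 (2.60%) on 214240_at, and CHGA, the founding chromogranin, with rank 900 (4.05%). CHGB, the second chromogranin, had rank 1283 and VGF, a neurotrophin-induced granin, rank 1485. The CPE probe sets had ranks 2166 (201116_s_at) and 2804 (201117_s_at). SCG2, the precursor of secretoneurin, had rank 2995, SCG3, a granin that binds chromogranin A, rank 4142, and SCG5, the 7B2 chaperone of the convertase PCSK2, rank 4156. The other GAL probe set, 207466_at, was the exception with rank 14661 (66.0% brighter). Brightness depends on the probes, so these ranks are not an order of transcript amounts.

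**Figure D1:**
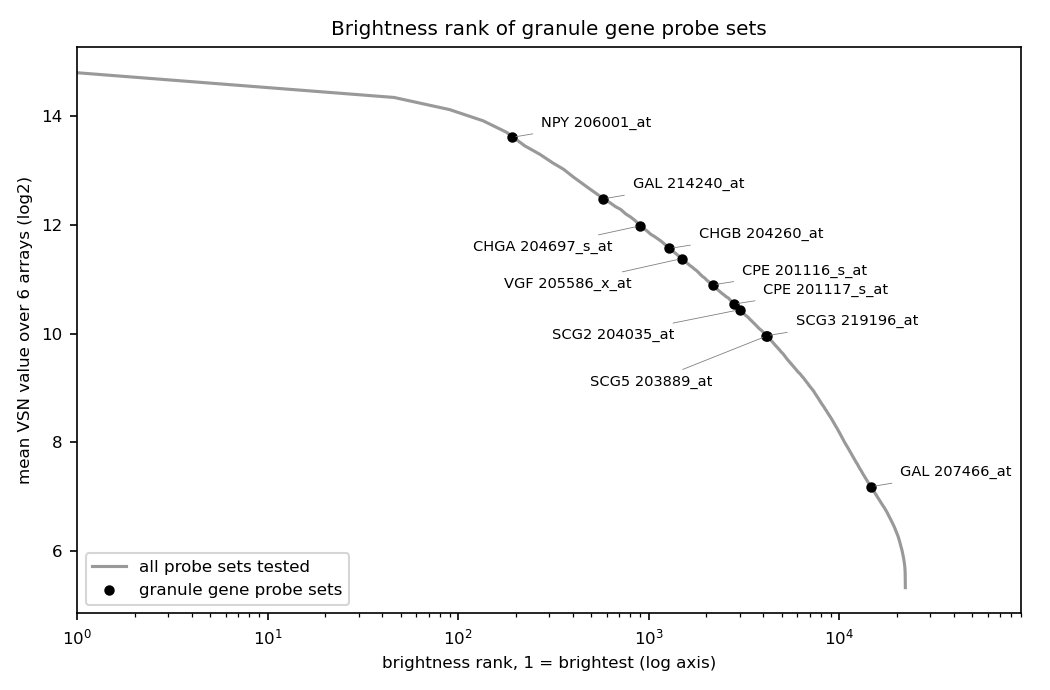
Mean VSN value (log2) of all probe sets tested against their brightness rank on a log axis (grey line), with the 11 granule gene probe sets as points. NPY lies at rank 191, and all points but GAL 207466_at, at rank 14661, lie above the median level.

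Ranks varied between arrays. NPY lay between ranks 168 and 245 on the 6 arrays, CHGA between 762 and 1222, and GAL 214240_at between 445 and 732. The widest spans among the bright probe sets were those of SCG5, from 2773 to 5860, and SCG3, from 2610 to 5636. These 2 genes had almost the same mean rank and moved over the same range.

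The levels on each array were compared first between treatments. None of the 11 probe sets differed between Bf and DMSO at an adjusted p under 0.10 (limma, Benjamini-Hochberg over all probe sets), and the background was 0% of the 22215. Without adjustment, 0 of 11 had p under 0.05, where 22 probe sets (0.099%) did among all. That share is far below 0.05 itself, since the spread between numbers enters the error of this fit, so 0 of 11 says little. In 0 of 11 did the 3 Bf values lie apart from the 3 DMSO values, which happened in 2.65% of all probe sets. The adjusted p was 1.00 for each probe set named below. In exact two-sided permutation tests over the 6 arrays p lay between 0.5 and 1, where 0.1 is the smallest p that 3 arrays against 3 can give. The arrays were permuted without regard to the replicate number, so the spread between numbers enters this p.

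Among the granins, CHGA had values of 12.21, 11.57 and 12.31 in Bf replicates 1, 2 and 3 and 12.16, 11.55 and 12.09 in DMSO. Replicate 2 was low in both groups, and the groups overlapped throughout. The means were 12.03 ± 0.40 (SD, n = 3) in Bf and 11.93 ± 0.33 (SD, n = 3) in DMSO, a difference of 0.10 (95% confidence interval -0.51 to 0.71). Bf minus DMSO was positive in each number, at 0.05, 0.02 and 0.22. Because the arrays measured bulk RNA, fewer cells with a transcript and less of it per cell cannot be told apart here or in any of the following values.

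CHGB stood at 11.83, 11.05 and 11.80 in Bf and at 11.54, 11.08 and 12.10 in DMSO. As for CHGA, replicate 2 was the low array of both groups. Bf minus DMSO was 0.29, -0.03 and -0.30 in replicates 1, 2 and 3, with a mean of -0.01 (95% confidence interval -0.78 to 0.76). The differences of the pairs thus had opposite signs and cancelled.

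SCG2 gave 10.17, 10.52 and 10.33 in Bf against 10.09, 10.64 and 10.87 in DMSO. Its mean difference of -0.19 (95% confidence interval -0.71 to 0.33) was the most negative of the 11, and most of it came from replicate 3, where Bf was 0.54 below DMSO. The other pairs differed by 0.09 and -0.12. SCG3 had the same feature, with 9.62, 9.91 and 10.21 in Bf and 9.48, 9.79 and 10.75 in DMSO. Replicates 1 and 2 of SCG3 gave 0.14 and 0.11, and replicate 3 gave -0.54, for a mean of -0.10 (95% confidence interval -0.93 to 0.73). These were the largest gaps within a number among the 11 probe sets, and both lay on the arrays with the 3′ bias of 1.49 and 1.90 given above. The part of that bias in them was not tested.

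VGF was at 11.04, 11.57 and 11.51 in Bf and at 11.12, 11.69 and 11.35 in DMSO. Replicate 1 was lowest in both groups. The difference was -0.01 (95% confidence interval -0.50 to 0.48), with pairs at -0.08, -0.12 and 0.16. The suffix of this probe set, 205586_x_at, marks probes that may also bind other transcripts. SCG5 spread more widely, with 9.51, 9.77 and 10.56 in Bf and 9.40, 9.85 and 10.63 in DMSO. Its groups nevertheless had almost the same means, 9.95 ± 0.55 (SD, n = 3) and 9.96 ± 0.62 (SD, n = 3), and the interval of the difference ran from -0.96 to 0.93.

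Of the peptides, NPY was at 13.42, 13.68 and 13.86 in Bf and at 13.39, 13.61 and 13.70 in DMSO. All 3 pairs were positive, at 0.03, 0.07 and 0.16, and the groups overlapped. The mean difference was 0.09 (95% confidence interval -0.26 to 0.44). GAL on 214240_at had 12.47, 12.15 and 12.90 in Bf against 12.35, 12.15 and 12.86 in DMSO. Its pairs differed by 0.12, 0.00 and 0.03, with a mean of 0.05 (95% confidence interval -0.56 to 0.67). The dim GAL probe set 207466_at also matched closely within each number, with 6.96, 7.13 and 7.48 in Bf and 6.96, 7.15 and 7.41 in DMSO. Within a number its Bf and DMSO values were never more than 0.07 apart, the smallest such limit of the 11.

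Carboxypeptidase E, encoded by CPE, gave 11.11, 10.85 and 10.62 in Bf and 11.14, 10.94 and 10.71 in DMSO on 201116_s_at. It was the only one of the 11 probe sets that was lower in Bf in all 3 pairs, by -0.02 to -0.09, and its mean difference was -0.07 (95% confidence interval -0.47 to 0.34). On 201117_s_at CPE had 10.22, 10.57 and 10.98 in Bf and 10.06, 10.32 and 11.11 in DMSO. There 2 of the 3 pairs were positive and the mean difference was 0.09 (95% confidence interval -0.67 to 0.85). Over all granule genes 3 probe sets were positive in all pairs (CHGA, NPY and GAL 214240_at) and 1 was negative, where 11.8% and 5.83% of all probe sets were.

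**Figure D2:**
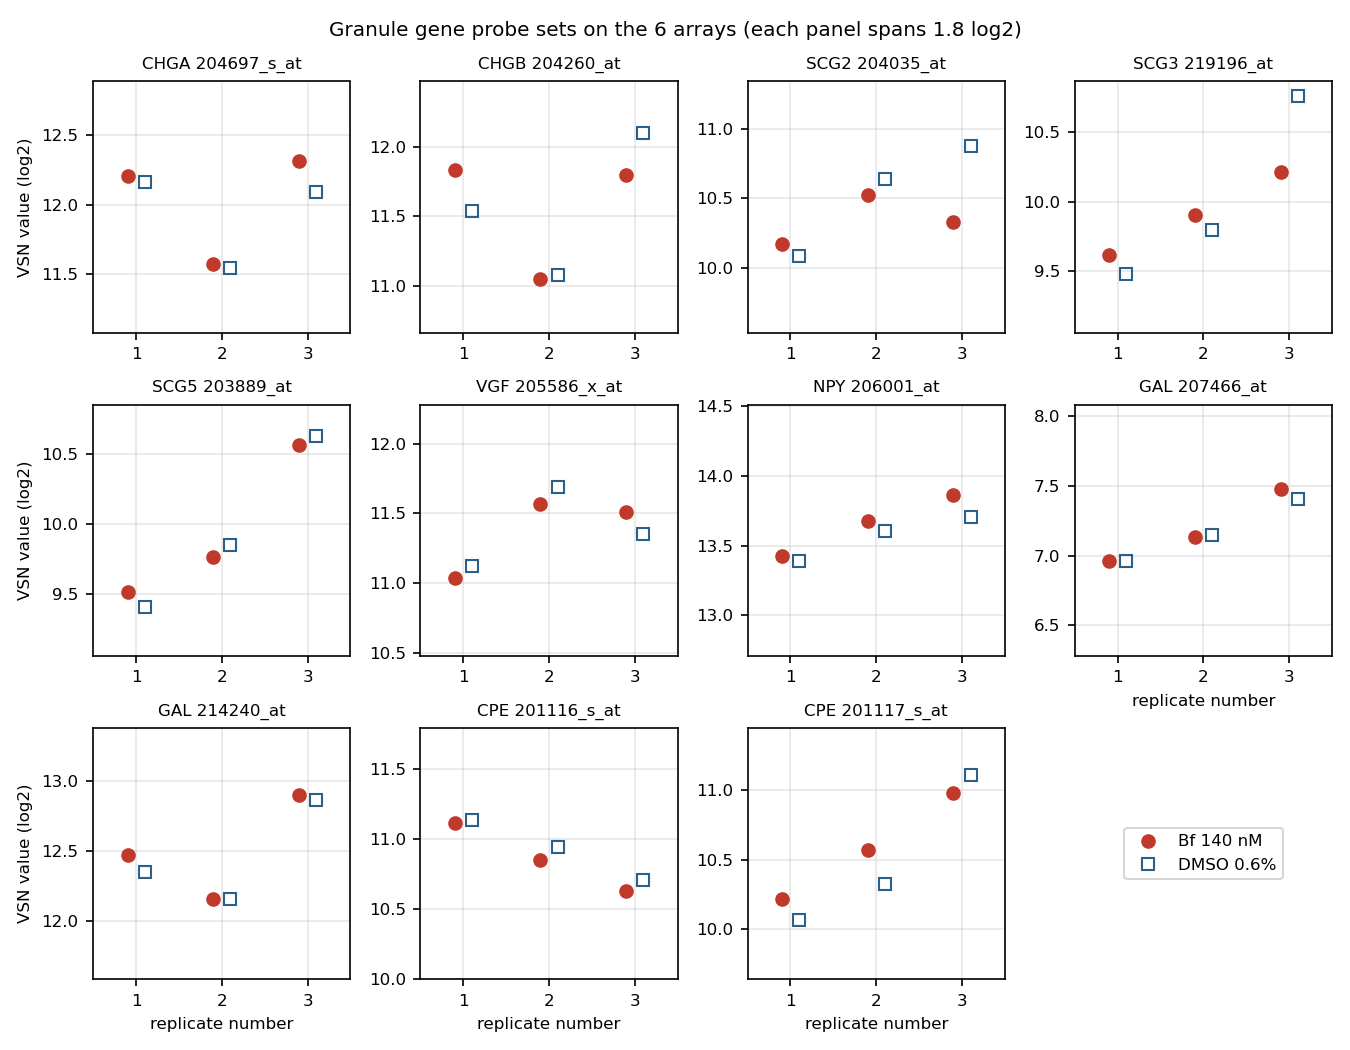
VSN value (log2) of each of the 11 probe sets on the arrays of replicates 1, 2 and 3, with Bf 140 nM as filled circles and DMSO 0.6% as open squares, 1 point per array. Bf and DMSO points of a number mostly lie close together, and they shift with the number, with CHGA and CHGB lowest in replicate 2 and SCG5 highest in replicate 3.

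**Figure D3:**
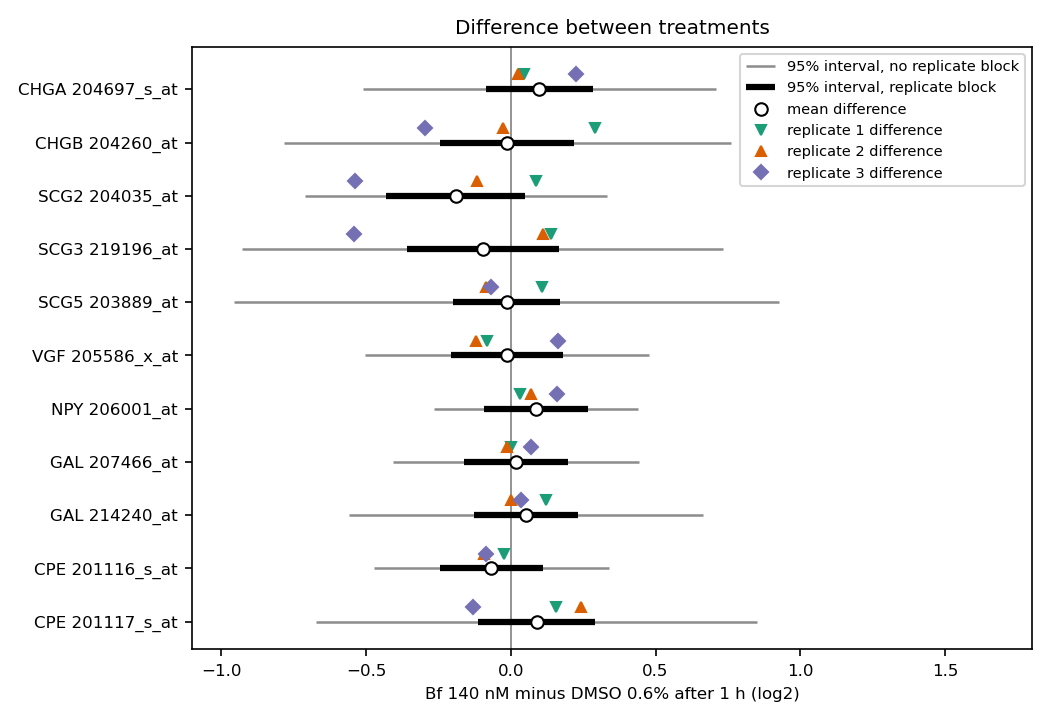
Bf minus DMSO (log2) of each probe set as the mean difference (white circle) with its 95% confidence interval from limma without the replicate block (thin line) and with it (thick line), and the difference in each replicate number as small symbols. All 11 intervals include 0 in both cases.

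The precision of these differences depended on whether the replicate number entered the analysis. The interval reached between 0.35 and 0.94 on either side of the difference over the 11 probe sets, with a median of 0.61, against a median of 0.31 over all probe sets. With the replicate number as a block it reached 0.18 to 0.26, with a median of 0.19, the same as over all probe sets. With the block, 0 of 11 passed at an adjusted p under 0.10 (0% of all) and 0 of 11 had p under 0.05 (1.22% of all). The interval was then -0.09 to 0.27 for NPY, -0.09 to 0.28 for CHGA and -0.43 to 0.05 for SCG2. Over the 11 probe sets the bound farthest from 0 was this lower bound of SCG2, at -0.43.

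The replicate numbers separated the granule genes more than the treatments did. In a model with treatment and number, a moderated F test of the number passed at an adjusted p under 0.10 in 11 of 11 probe sets (limma), where 44.6% of all probe sets passed. At or above the median level this was 10 of 10 against 63.5%, and below it, for GAL 207466_at alone, 1 of 1 against 25.6%. The number took between 64.4% (SCG2) and 99.1% (SCG5) of the sum of squares of a granule gene, with a median of 94.4% against 76.5% over all probe sets. The treatment, which has fewer degrees of freedom than the number, took between 0.022% and 12.4%. From the lowest to the highest number the means of a granule gene differed by a median of 0.64, against 0.26 over all probe sets, and this range was wider than the largest gap within a number in 10 of 11 probe sets (66.2% of all). SCG2 was the exception, with 0.47 between numbers and 0.54 within replicate 3. Sums of squares and ranges were set against all levels, as were the lowest and highest number and the contrasts between single numbers below. The number test passed more often in bright probe sets, and the part of level in these gaps was not tested.

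The numbers did not order all granule genes alike. In 11 of 11 probe sets the same number was lowest in both treatments, where 61% of all probe sets showed this. Replicate 1 was lowest in 7 (SCG2, SCG3, SCG5, VGF, NPY, GAL 207466_at and CPE 201117_s_at), replicate 2 in 3 (CHGA, CHGB and GAL 214240_at) and replicate 3 in 1 (CPE 201116_s_at). Among all probe sets 11.4% were lowest in replicate 1 in both treatments, 11.8% in replicate 2 and 37.7% in replicate 3. The same number was highest in both treatments in 8 of 11, against 59.1% of all. The full order of the 3 numbers was also shared in 8 of 11, against 40.7% of all, and at or above the median level in 7 of 10, against 48.7%.

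Replicate 3 was set against the mean of replicates 1 and 2, a contrast chosen with earlier results of these data known. It was higher in 8 of 11 probe sets and lower in 1 at an adjusted p under 0.10 (limma), where 17.7% of all probe sets were higher and 29% lower. At or above the median level the granule genes counted 7 of 10 higher and 1 lower, against 29% and 33.8%. The median of this contrast over all probe sets was -0.07, and it became 0.02 with quantile normalization and 0.13 with equal array medians, so each value below is to be read against that shift.

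SCG5 had the largest contrast of the 11, with means of 9.46, 9.81 and 10.60 over both treatments in replicates 1, 2 and 3. Replicate 3 was higher by 0.96 ± 0.09 (SE, adjusted p = 4.5e-06 from limma). SCG3 was higher by 0.78 ± 0.13, at 10.48 against 9.55 and 9.85, and CPE 201117_s_at by 0.75 ± 0.10. SCG5 encodes the chaperone of PCSK2 and SCG3 a granin that binds chromogranin A. CPE, an enzyme of peptide trimming, was lower by -0.34 on its other probe set, 201116_s_at. GAL was higher by 0.60 ± 0.09 on 214240_at and by 0.39 ± 0.09 on 207466_at, and CHGB by 0.57 ± 0.11. Without DMSO replicate 3 the contrast of SCG3 was 0.45 and that of CHGB 0.36, and both still passed. With quantile normalization CHGB had 0.36 and GAL 214240_at 0.37, and with equal array medians GAL 207466_at had 0.59. CHGA was higher by 0.33 ± 0.09 (adjusted p = 0.012 from limma), but its replicates 1 and 3 had 12.19 and 12.20 and replicate 2, at 11.56, was the low one. With quantile normalization the value of CHGA was 0.11 (adjusted p = 0.42) and that of NPY, 0.26 ± 0.09 here, was 0.09 (adjusted p = 0.42), so both no longer passed. With equal array medians they were 0.53 and 0.46. NPY also missed the threshold without Bf replicate 2, Bf replicate 3 or DMSO replicate 2, and CHGA without Bf replicate 3.

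Of the remaining 3 probe sets, CPE 201116_s_at was lower in replicate 3, by -0.34 (SE 0.09, adjusted p = 0.0069 from limma), with -0.15 (adjusted p = 0.18) under equal array medians. VGF did not pass, with 0.08 ± 0.09, and SCG2 did not, with 0.25 ± 0.12. Under equal array medians both passed, at 0.28 and 0.45. VGF was -0.10 with quantile normalization and -0.05 without Bf replicate 3, and SCG2 was -0.02 without DMSO replicate 3. Without Bf replicate 1 or Bf replicate 3 SCG2 passed, at 0.35 and 0.51.

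**Figure D4:**
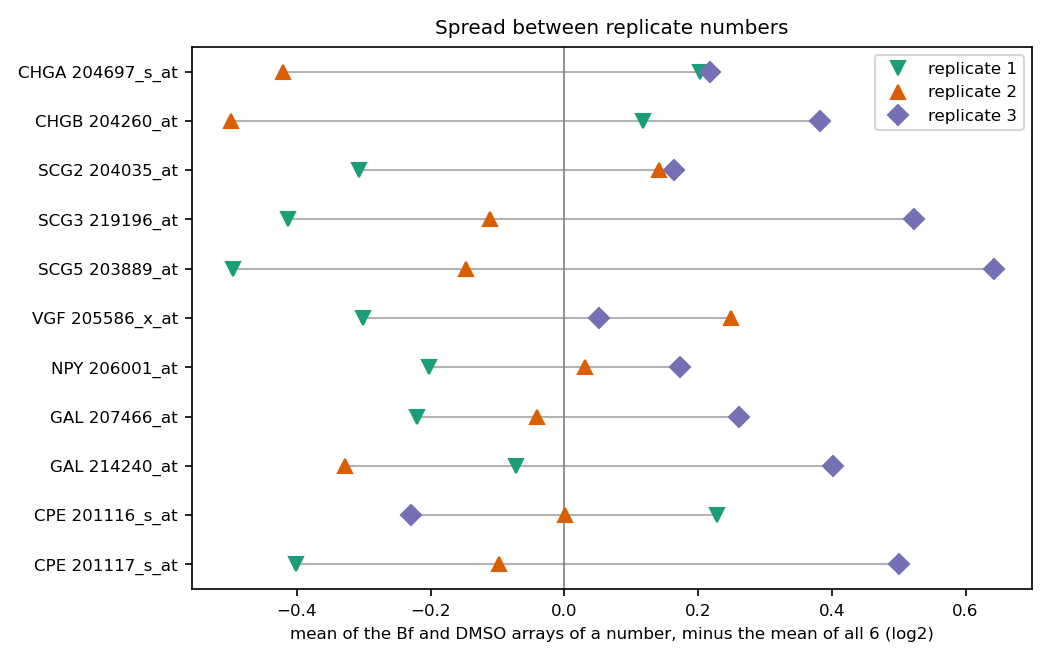
Mean of the Bf and DMSO array of each replicate number, minus the mean of all 6 arrays (log2, horizontal axis), for each of the 11 probe sets (rows), with 1 symbol per number and a grey line over their range. Replicate 3 is rightmost for SCG5, SCG3 and CPE 201117_s_at, replicate 2 is leftmost for CHGA, CHGB and GAL 214240_at, and replicate 3 is leftmost for CPE 201116_s_at.

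The spread was not confined to replicate 3. Replicate 2 was lower than replicate 1 by -0.62 in both CHGA and CHGB (adjusted p = 0.0087 and 0.026 from limma) and higher by 0.55 in VGF (adjusted p = 0.019), where 3.39% of all probe sets were lower and 1.27% higher. Replicate 3 was higher than replicate 1 in 8 of 11 (15.8% of all) and lower in 1 (26.7% of all). Against replicate 2 it was higher in 7 (16.1% of all) and lower in 1 (24.8% of all). Both replicate 3 arrays were also left out, a choice made after seeing the data. Replicates 1 and 2 then differed in 7 of 11 granule probe sets, against 12.5% of all, namely CHGA, CHGB, SCG2, SCG3, SCG5, VGF and CPE 201117_s_at. That fit has 1 residual degree of freedom per probe set and takes its spread from all probe sets together. The actin control differed by 0.37 and 0.50 between its ends in replicate 2 and by 0.10 and 0.12 in replicate 1, and the part of this in the result was not tested. The labels and methods do not say what a replicate number marks.

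Genes with several probe sets allowed a check within the gene. For CPE, 201116_s_at exceeded 201117_s_at by 0.89 and 1.07 in replicate 1 (Bf and DMSO), by 0.28 and 0.62 in replicate 2, and by -0.35 and -0.40 in replicate 3. The brighter of the 2 therefore changed with the replicate number, and their contrasts of replicate 3, -0.34 and 0.75, passed in opposite directions. Among 1841 genes with at least 2 probe sets past the threshold in this contrast, 778 (42.3%) had opposite directions too. At or above the median level it was 538 of 1199 genes (44.9%). No direction for the CPE transcript between replicate numbers was taken from these values. The measured granule genes other than CPE and GAL had 1 probe set each. Their replicate 3 values could not be checked in this way and hold for the probe set only.

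The GAL probe sets lay far apart, with 214240_at above 207466_at by 5.00 to 5.51 on the 6 arrays. Both were highest in replicate 3. They differed in the lowest number, which was replicate 2 for 214240_at (12.15) and replicate 1 for 207466_at (6.96). Neither gene had a Bf difference whose interval excluded 0 on either probe set.

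Genes that work with these were then examined in 5 lists, counting the brightest probe set of each gene. Bf and DMSO differed in 0 genes of any list at an adjusted p under 0.10 (limma, 0% of all genes), and in 0 at p under 0.05, where 7 of 11963 genes had such a p. With the block, 0 genes of the lists and 99 of all genes had p under 0.05. The median difference of each list lay between 0.00 and 0.03, against 0.01 over all genes. The replicate number, in contrast, passed in 44.2% of all genes and in 61.1% of those above the median level. In the contrast of replicate 3, 20% of all genes were higher and 25.6% lower. The shares of the lists below are to be read against these, and differences between lists were not tested.

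Of the processing enzymes and their regulators, 10 of 11 were measured and 6 of them (60%) differed between replicate numbers. Above the median level this was 5 of 6 (83.3%). Replicate 3 was higher in 3 (30%) and lower in 4 (40%). CTSL, a protease that also cleaves neuropeptide precursors, was higher by 0.85 on 202087_s_at, whereas PCSK1N (proSAAS, the inhibitor of PCSK1) was lower by -0.53 and PCSK7, a convertase of the trans-Golgi network, by -0.35. The 4 probe sets of CPD, a carboxypeptidase related to CPE, split, with 0.49 on the brightest and -0.42, -0.92 and -1.28 on the others. In the treatment comparison CPM, a carboxypeptidase of the cell surface, had 0.22 (95% confidence interval -0.03 to 0.48) on the dim 206100_at and -0.06 on its brighter probe set, and QPCT, which cyclizes N-terminal glutamine, and PCSK5 had 0.11 and 0.09. CPD had -0.13 on 201940_at.

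The list of granule membrane, docking and priming genes had 24 of 30 measured, and 10 (41.7%) differed between numbers, or 6 of 11 (54.5%) above the median level. Replicate 3 was higher in 5 (20.8%) and lower in 4 (16.7%), so the share of higher genes was near that of all genes. SYT1, a calcium sensor of exocytosis, was higher in replicate 3 by 0.56 on 203999_at and 0.85 on 203998_s_at. RPH3A, a RAB3 effector, was lowest in replicate 1 (8.50 against 9.34 and 9.30), and ICA1 was lowest in replicate 2 (9.37 against 10.07 and 9.84 on 207949_s_at). CYB561, the electron carrier of the granule membrane, had -1.60 on 210816_s_at but 0.15 to 0.25 on its other 4 probe sets. Bf minus DMSO was -0.20 (95% confidence interval -0.49 to 0.09) for CYB561 on 209163_at, 0.15 for RAB3B, 0.18 for SLC18A2, the vesicular monoamine transporter, and 0.07 for UNC13A.

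Other peptide and hormone precursors were mostly dim, with 6 of 41 measured genes above the median level. The number passed in 10 of the 41 (24.4%) and in 4 of the 6 above the median level (66.7%). In 6 genes (14.6%) replicate 3 was higher and in 5 (12.2%) lower, with a median contrast of -0.02 over the list. The genes named next were picked by the number test. VIP, a peptide of parasympathetic and enteric neurons, was at 7.59, 8.29 and 9.39 in replicates 1, 2 and 3, and its contrast of 1.45 in replicate 3 was larger than that of any granule gene above. NUCB2, the precursor of nesfatin, was higher by 1.19, CALCB, which encodes a calcitonin gene-related peptide, by 0.58, and NMU, the neuromedin U precursor, by 0.44. In the treatment comparison STC1 had 0.18 on 204597_x_at and 0.00 on its brightest probe set, and NPPA, AVP and OXT, all dim, had 0.14, 0.13 and 0.11.

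The receptors of NPY and galanin were dim, with 7 of 8 measured, 1 above the median level and 0 past the threshold of the number test. NPY1R was at 5.98 ± 0.09 (SD, n = 3) in Bf and 5.93 ± 0.03 (SD, n = 3) in DMSO, and GALR1 at 6.01 ± 0.20 and 6.06 ± 0.04. NPY5R had a difference of -0.06, NPY6R of 0.08 and GALR2 of 0.03. NPY2R differed between its probe sets, with replicate 3 lower by -0.84 on 210730_s_at and higher by 0.27 on the brightest, 210729_at.

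Transcription factors of neuroendocrine identity were listed together with REST, its cofactor RCOR1, CREB1 and CREM. This list had the highest share of the 5, with 8 of 10 measured genes (80%) past the threshold of the number test. Above the median level it was 7 of 8 (87.5%). Replicate 3 was higher in 4 (40%) and lower in 5 (50%). ISL1, a LIM homeobox factor of sympathetic neurons, was higher by 0.69, and all 3 probe sets of GATA3 were higher, by 0.64 to 0.99. CREB1, the factor that binds the cAMP response element, had -0.81 on its brightest probe set and -1.46, -1.13 and -0.02 on the others. The CREM probe sets, of a related factor, had 0.33 on the brightest and -0.62 on 207630_s_at. Bf minus DMSO was 0.22 (95% confidence interval -0.06 to 0.50) for CREB1 on 204314_s_at, -0.12 for CREM on 214508_x_at, 0.09 for GATA2 on 207954_at and 0.10 for RCOR1.

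**Figure D5:**
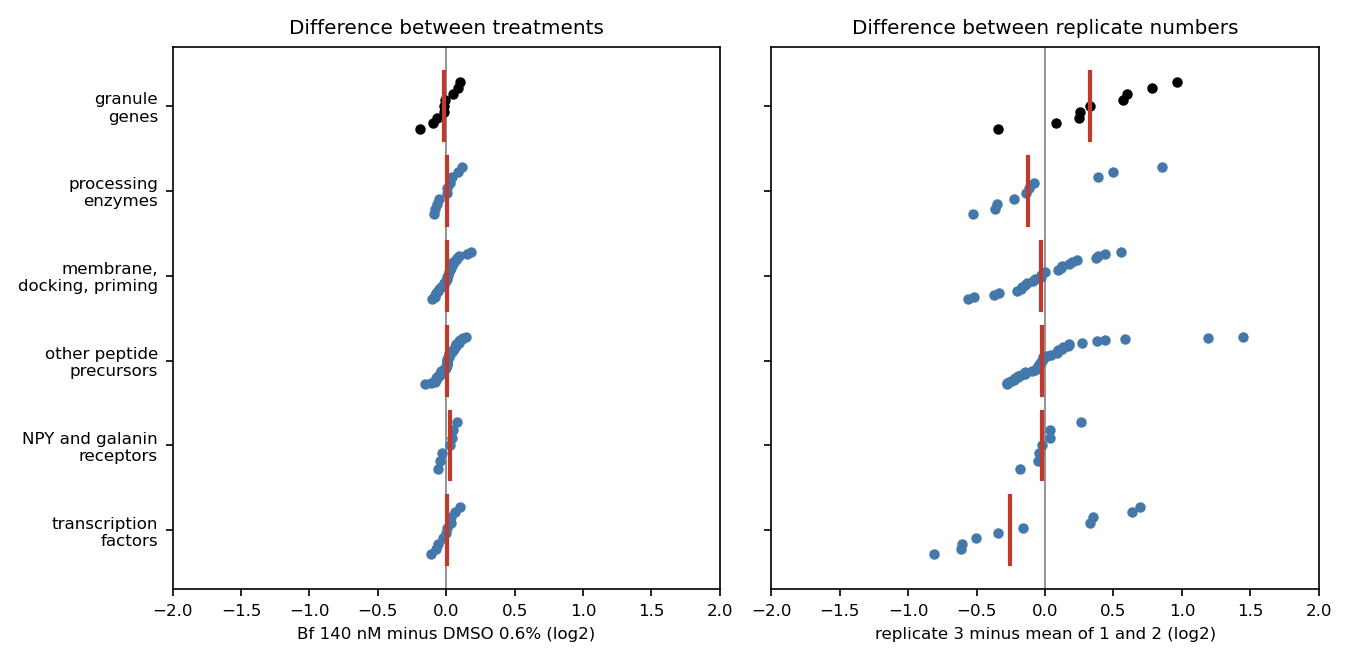
Bf minus DMSO (left) and replicate 3 minus the mean of replicates 1 and 2 (right), both log2, for the brightest probe set of each gene, as 1 point per gene with red lines at the medians, for the granule genes and the 5 lists. On the left all medians lie within 0.03 of 0. On the right the granule genes have a median of 0.33 and the 5 lists between -0.25 and -0.02.

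Averaged over the 9 genes by their brightest probe set, the granule genes stood at 11.27, 11.23 and 11.57 in Bf and at 11.19, 11.26 and 11.67 in DMSO. The replicate 3 arrays were thus the highest of each treatment. On the same arrays the mean of the noradrenergic markers was 11.17 and 11.19, inside its range on the other 4. That of the mesenchymal markers was 8.70 and 8.80, against 8.81 to 8.93 on the others. Single markers moved both ways. Replicate 3 was higher in 3 and lower in 3 of the 8 noradrenergic markers, with contrasts from -0.61 to 0.69. The number test passed in 7 of these 8, against 44.2% of all genes. Of the 9 mesenchymal markers 2 were higher and 3 lower, with contrasts from -1.04 to 0.55. The part of the 3′ bias of these arrays in the granule values was not tested.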

How the data were processed

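The 6 arrays were grouped as Bf or DMSO, and the replicate number taken, from the sample titles, and every column belonged to a sample of these groups. The authors obtained cell intensities with GCOS, applied VSN in R 2.5.0 and deposited a table of log2 values. The probe summary and the set of arrays normalized together are not stated in the methods or labels. Base 2 rests on VSN as a method and on how far the values span. The Present-call filter of the methods is not part of these values and was not repeated. Array intensities carry no read depth, and 3 arrays per group limit the precision.

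Gene names came from the platform annotation (19064 probe sets with 1 symbol, 1043 with several, 2108 with none), naming 11963 genes. RefSeq tables gave symbols and promoters. Of 143 list entries, 127 had a probe set with 1 symbol.

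The 22215 probe sets left after 62 controls were fitted with lmFit and eBayes of limma 3.58.1 in R 4.3.3, with no filter, and passed at a Benjamini-Hochberg adjusted p under 0.10. SAM, the test of the methods, was not rebuilt, and its FDR level was kept. The fit was checked on simulated data that held no spread between replicate numbers except in probe sets given one. The fit without the block was thus not checked under the spread seen here. Same-numbered arrays deviated together from their group means (correlations 0.725, 0.783 and 0.880), so the numbers were taken to pair the samples. A further number in the descriptions (3, 5 or 6) is also shared by the Bf and DMSO arrays of each replicate number, and the labels do not say what it marks. Main results use no block, since the methods do not say whether SAM was run on pairs. Their intervals and p therefore ignore this pairing and hold the spread between numbers. Results with the block are given beside them for the granule genes. The genes and lists were chosen with earlier results of these data known. All granule probe sets were named, and from each list up to 4 genes with the smallest p for treatment and up to 4 for the number. Other settings tried were quantile normalization, the replicate block, 2 filters on level, equal array medians, array weights, trend and robust eBayes, an adjusted p of 0.05, leaving out each array and, chosen after seeing the data, leaving out both replicate 3 arrays.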

Additional observations from a re-analysis of the deposited data

How the results depend on the processing

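No alternative gave a probe set or gene that differed between Bf and DMSO, and the replicate block gave 0 calls among the granule genes, in each list and among all probe sets. The treatment differences of the granule genes were small enough to turn sign. With quantile normalization CHGB had 0.0027 and GAL 207466_at -0.0060, with equal array medians GAL 207466_at had -0.0013, and with array weights CHGB had 0.28, SCG3 0.067 and GAL 207466_at -0.0080. Without both replicate 3 arrays CHGB had 0.13, SCG3 0.12, SCG5 0.012 and GAL 207466_at -0.0069. When each array was left out in turn, the difference ran from -0.093 to 0.33 for CHGA, from -0.26 to 0.25 for CHGB, from -0.36 to 0.28 for SCG3, from -0.32 to 0.32 for SCG5, from -0.15 to 0.15 for VGF, from -0.017 to 0.20 for NPY, from -0.13 to 0.14 for GAL 207466_at, from -0.14 to 0.26 for GAL 214240_at, from -0.19 to 0.052 for CPE 201116_s_at and from -0.13 to 0.39 for CPE 201117_s_at. SCG2 stayed negative, from -0.41 to -0.02.

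The contrast of replicate 3 turned sign for VGF with quantile normalization (-0.10) and ran from -0.055 to 0.21 for VGF and from -0.015 to 0.51 for SCG2 when each array was left out. Without both replicate 3 arrays the number test passed in 2783 probe sets in all, 7 of the granule genes, 1 processing enzyme, 4 membrane genes, 4 precursors and 2 transcription factors, where fewer arrays were tested. With the filter at the median level, which tests fewer genes, 6 membrane genes and 4 precursors passed. Receptors passed in 1 case with quantile normalization, in 2 with equal array medians, in 1 with trend and robust settings and in 0 to 1 when an array was left out. Under the alternatives other than leaving out arrays, 44 of 49 counts of the number test stayed within 1.5 times of the main one. The counts of the treatment test were 0 throughout and say nothing about stability.

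With 3 arrays per group and no block, the interval of a granule gene, which is not adjusted for multiple testing, reached 0.35 to 0.94 on either side. These values are not the limit of a call, which took an adjusted p under 0.10 over all probe sets. No probe set passed, although the largest difference among all was 0.64 and the smallest unadjusted p 0.011 (limma). The smallest difference that could have been called was not determined. The base of the logarithm, the probe summary and the meaning of the replicate number limit the fold that a difference stands for, and dim probe sets understate it.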
